A study of Rattus norvegicus with 6 samples.

Results

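The 9 genes described here make up the MHC class II antigen presentation machinery of the rat liver as it could be followed in this experiment. They were the rows named Cd74, RT1-Da, RT1-Db1, RT1-Ba, RT1-Bb, RT1-DMa, RT1-DMb, Ciita and Cd83, out of 30957 genes in the table, and all 9 passed the filter on low counts that left 12210 genes for testing. The livers came from female Sprague Dawley rats, an outbred stock, bought at 3 weeks of age. Every rat of both groups first drank an antibiotic cocktail in 3 courses of 7 days, which makes a pseudo germ-free recipient, and was then gavaged daily for 14 days with a pooled faecal suspension. The t-DHEA group received the microbiota of rats treated with dehydroepiandrosterone (DHEA), an androgen precursor used to induce a polycystic ovary syndrome-like state, and the t-PBS group that of rats given phosphate-buffered saline. The recipients themselves were not injected with DHEA. The paper reports no detected DHEA in donor faeces but more of its sulfate in those of DHEA-treated donors. It considers that the effect of the transplant may be unrelated to either, given the low levels. Of 6 rats in each group, 3 livers were sequenced, and p-values measure the spread between these 3 livers a group. Because each group received its own pool of faeces, the donors' treatment and the particular pool cannot be told apart.

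MHC class II molecules present peptides from endocytosed proteins to CD4+ T cells. An alpha and a beta chain assemble in the endoplasmic reticulum with the invariant chain (Cd74), which fills the groove and directs the complex to endosomes, where cathepsins degrade it and the DM heterodimer exchanges its last fragment for a peptide. In the rat, RT1-D is the counterpart of human HLA-DR and RT1-B that of HLA-DQ. Ciita is the coactivator that sets class II transcription together with the RFX, CREB and NF-Y factors, and Cd83, a marker of mature dendritic cells, prolongs the residence of class II molecules at the cell surface. In liver, dendritic cells, B cells, Kupffer cells and other macrophages carry most of this machinery, so that in a whole-liver library fewer such cells and less RNA per cell cannot be told apart.

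The 6 members that are RT1 genes lie in the rat MHC on chromosome 20, and the 4 classical chains are neighbours there. In Rnor_6.0 coordinates, RT1-Bb (ENSRNOG00000032708) spanned chr20:4039413-4049711, RT1-Ba (ENSRNOG00000000451) chr20:4066132-4070721, RT1-Db1 (ENSRNOG00000033215) chr20:4087618-4097190 and RT1-Da (ENSRNOG00000032844) chr20:4127644-4132616. RT1-DMb (ENSRNOG00000051002, chr20:5227045-5234290) and RT1-DMa (ENSRNOG00000047864, chr20:5240975-5244386) were adjacent to each other further along. Cd74 (ENSRNOG00000018735) was at chr18:56071478-56080849, Ciita (ENSRNOG00000002659) at chr10:5213350-5260608 and Cd83 (ENSRNOG00000018092) at chr17:24416651-24435790. No other gene model of the table overlapped any of the 9.

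Class II genes are recognised by their promoters, in which an X box, bound by the RFX complex, stands a short distance before a Y box, an inverted CCAAT motif bound by NF-Y. The promoter stretches of the 4 classical chains are shown because their letters are what the genes share beyond the choice of members. They were taken from RefSeq (build GRCr8, not the build of the count table) and are written in the direction of transcription, with the X box core AGCAAC and the Y box core ATTGG, here within CTGATTGG, in capitals.
RT1-Da (chr20:4515303-4515390, plus strand): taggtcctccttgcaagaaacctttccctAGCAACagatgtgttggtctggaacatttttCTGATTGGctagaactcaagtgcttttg
RT1-Db1 (chr20:4560218-4560305, minus strand): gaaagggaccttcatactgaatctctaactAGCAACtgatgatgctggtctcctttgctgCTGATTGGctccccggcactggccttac
RT1-Ba (chr20:4576951-4577038, plus strand): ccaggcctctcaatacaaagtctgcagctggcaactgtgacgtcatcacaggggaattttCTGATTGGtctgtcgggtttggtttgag
RT1-Bb (chr20:4604155-4604242, minus strand): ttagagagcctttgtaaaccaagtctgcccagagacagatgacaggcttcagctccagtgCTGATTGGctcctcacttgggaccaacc
The D chains carried both cores in the same order, with 28 bases between them in RT1-Da and 27 in RT1-Db1. In the B chains only the Y box core was found. The search took exact letters, so an X box with other letters would be missed, and its absence from the B chains is not shown. The promoter of Cd74 is shown whole, 300 bases from 250 before to 50 after the start of the gene, with the same cores in capitals wherever they occur on either strand.
Cd74 (chr18:56526956-56527255, plus strand): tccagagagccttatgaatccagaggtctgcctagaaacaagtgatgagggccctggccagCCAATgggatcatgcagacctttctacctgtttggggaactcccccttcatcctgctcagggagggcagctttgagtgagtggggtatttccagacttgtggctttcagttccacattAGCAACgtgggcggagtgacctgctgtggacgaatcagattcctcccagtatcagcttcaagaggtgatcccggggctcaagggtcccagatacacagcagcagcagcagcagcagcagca
Its X box core began at -71 from the start of the gene and its one Y box core lay on the other strand, at -189. Of the 9 genes, 7 had a promoter in the RefSeq table. Searched on both strands, the X box core was found in 3 of these (Cd74, RT1-Da and RT1-Db1) against 14.7% of all 33469 rat promoters of the same length, and the Y box core in 6 against 37.5%. Cd83 had neither core. The longer form CTGATTGG, which contains the Y box core and was chosen after these promoters were seen, stood in all 4 classical chains and in 3.5% of all promoters. Both cores together were found in 5.33%. An X core followed by a Y core after 25 to 28 bases, a spacing taken from the class II promoters themselves, occurred in 26 promoter entries or 0.0777%, 6 of them of class II genes (RT1-Da, RT1-Db1, RT1-Db2, RT1-DOa, RT1-DOb and RT1-Ha). These matches describe letters in a window and are not measured binding sites.

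The libraries held 12348511 to 14316886 counts on genes, with the groups overlapping in depth, and albumin took 10.62% to 13.49% of the counts of each liver. Levels are given as CPM, the count scaled to a common library size with TMM factors, and 3 counts, the most that a count of 0 allows, were 0.2101 to 0.2475 CPM. FPKM values, which also divide by the length of the gene model, are used only to compare one gene with another. A gene was called higher or lower by the study's criteria, a fold-change above 1.2 together with p below 0.05 before adjustment, in edgeR's quasi-likelihood test over all genes. In that test 634 genes had p below 0.05 before adjustment and 0 after Benjamini-Hochberg adjustment. DESeq2 gave 24 genes below 0.05 after adjustment, and limma on FPKM gave 0. The calls below are therefore calls without correction, and their number among the members is read against the share of all genes called.

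Of the 9 genes, 2 were called lower in t-DHEA livers, Cd74 and Cd83, and none was called higher, where 2.98% of all genes tested were called lower and 1.97% higher. The log2 fold change (t-DHEA against t-PBS) was below 0 for 8 of the 9, with a median of -0.24. Over all genes tested, 49.6% were below 0 and the median was 0.0013. The 3 t-DHEA livers were all lower than the 3 t-PBS livers for the same 2 genes, as was so for 5.42% of all genes, and the opposite order, which 4.67% of all genes had, was met by no member. The lowest adjusted p among the 9 was 0.90 (edgeR's quasi-likelihood test, Benjamini-Hochberg).

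**Figure D1:**
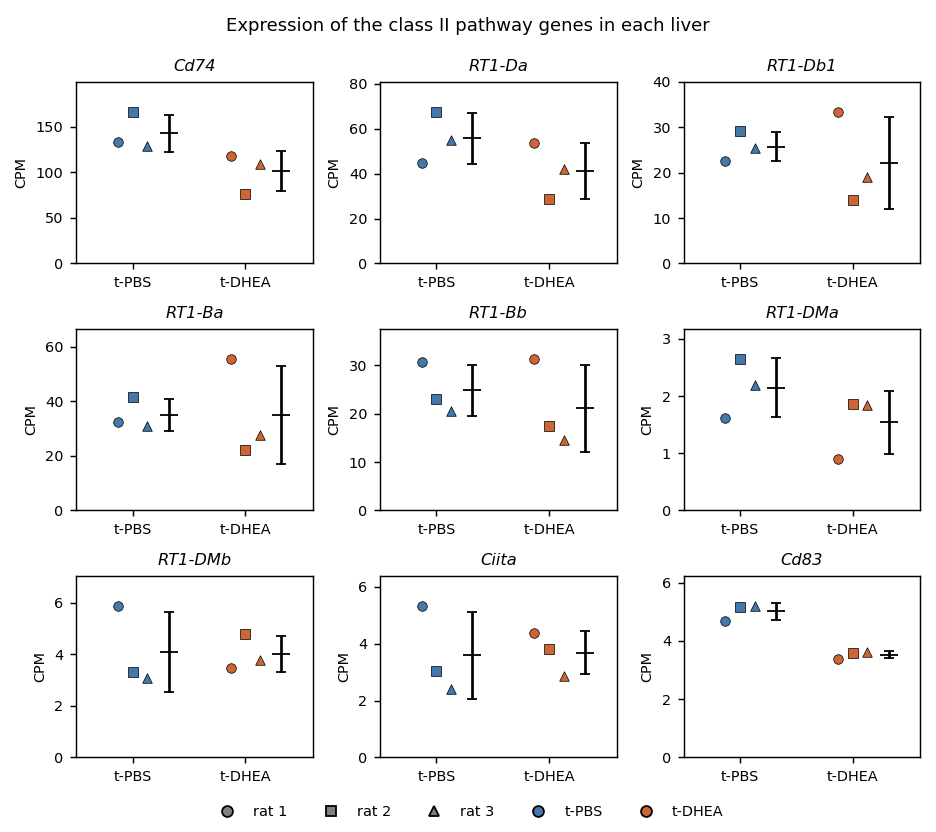
Expression of each gene in the 6 livers, in CPM on axes that start at 0. Each point is 1 liver (circle, square and triangle for rats 1, 2 and 3 of a group), and the bar beside it gives the mean and SD of the 3 livers. Cd74 and Cd83 separate the groups, while t-DHEA rat 1 is the highest liver for RT1-Db1, RT1-Ba and RT1-Bb.

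Cd74 was by far the most abundant of the 9, with a mean of 82.79 FPKM, above 94.3% of the genes tested. Its expression was 133.3, 166.2 and 129.1 CPM in t-PBS rats 1, 2 and 3 and 118.0, 76.1 and 109.3 CPM in t-DHEA rats 1, 2 and 3. The means were 142.9 ± 20.32 CPM and 101.1 ± 22.1 CPM (SD, n = 3 livers each). The groups did not overlap, although the lowest t-PBS liver was close to the highest t-DHEA liver. The log2 fold change was -0.50 (SE 0.17, 95% interval -0.89 to -0.11), and the adjusted p = 0.90 (edgeR's quasi-likelihood test, Benjamini-Hochberg). This is a level 1.413 times lower. It stayed called in 5 of the 6 fits with 1 liver left out, though at -0.33 without t-DHEA rat 2, the lowest liver. It was not called without t-PBS rat 2, the highest liver, at a log2 fold change of -0.37 (SE 0.18). Without that rat, 1 of the 9 genes was called, against 2.41% of all genes.

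Cd83 was far less abundant than Cd74, at a mean of 2.023 FPKM. Of the 9 it varied least between the livers of a group, relative to its mean. It stood at 4.692, 5.157 and 5.204 CPM in the t-PBS livers, from 67, 70 and 69 counts. In the t-DHEA livers it stood at 3.383, 3.588 and 3.628 CPM, from 41, 48 and 47 counts. The livers of a group lay close together and the groups were apart. At such counts, this spread was smaller than counting error alone would give on average, so the closeness need not reflect steady expression. The log2 fold change was -0.50 (SE 0.17, 95% interval -0.89 to -0.12; edgeR, adjusted p = 0.90). Leaving out any 1 of the 6 livers kept the call, with values from -0.55 to -0.48. DESeq2 gave -0.50 with a larger SE of 0.28 and did not call it. That tool called 2 of the 9 genes as well, Cd74 and RT1-Da, against 1.97% of all genes.

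The classical chains were next in level. RT1-Da and RT1-Ba, the alpha chains of the D and B molecules, had 16.94 and 17.02 FPKM on average and so were close to each other, whereas their beta chains RT1-Db1 and RT1-Bb had 3.733 and 3.992 FPKM. The gene models of the beta chains were the longer ones, 6427 and 5754 bases against 2878 and 2063, and FPKM depends on these lengths.

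RT1-Da, the alpha chain of the D molecule, measured 44.75, 67.56 and 54.91 CPM in t-PBS livers and 53.54, 28.63 and 42.07 CPM in t-DHEA livers. The groups overlapped through t-DHEA rat 1 and t-PBS rat 1, and the log2 fold change of -0.43 (SE 0.23, 95% interval -0.94 to 0.08; edgeR, adjusted p = 0.98) was not called. RT1-Db1, its beta chain, measured 22.69, 29.17 and 25.42 CPM against 33.41, 14.05 and 18.99 CPM. The highest and the lowest value of all 6 livers were both in the t-DHEA group, which had a SD of 10.06 CPM against 3.255 CPM in t-PBS. Its log2 fold change was -0.22 (SE 0.27, 95% interval -0.84 to 0.40).

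RT1-Ba, the alpha chain of the B molecule, had equal group means, 35.06 ± 5.863 CPM in t-PBS and 35.1 ± 17.98 CPM in t-DHEA (SD, n = 3 livers each). These equal means hid a wide spread. The single livers were at 32.5, 41.77 and 30.92 CPM in t-PBS and at 55.61, 22.05 and 27.63 CPM in t-DHEA, so 1 t-DHEA liver was above all t-PBS livers and the others below them. RT1-Bb, its beta chain, stood at 30.74, 23.13 and 20.67 CPM against 31.35, 17.42 and 14.51 CPM. The log2 fold change was -0.0012 for RT1-Ba (SE 0.30, 95% interval -0.69 to 0.69) and -0.24 for RT1-Bb (SE 0.27, 95% interval -0.86 to 0.38). All 4 chains had intervals that include 0 and also the value found for Cd74, so these data do not show that the groups were alike.

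**Figure D2:**
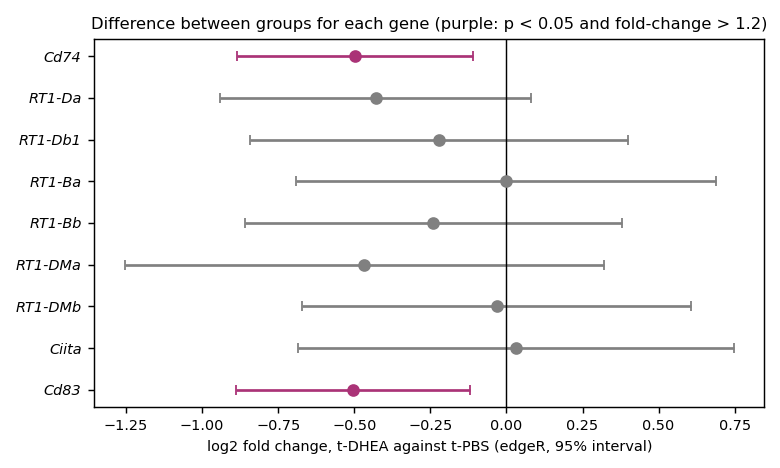
Log2 fold change of t-DHEA against t-PBS for each gene, with the 95% interval from the edgeR fit of 3 against 3 livers. Purple marks the 2 genes called lower, Cd74 and Cd83, whose intervals end at -0.11 and -0.12, and grey the other 7, whose intervals cross 0.

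The calls of the chains changed with the livers included. Without t-DHEA rat 1, 6 of the 9 genes were called lower, against 3.41% of all genes in that fit, and the median log2 fold change of the 9 was -0.50. The 6 were Cd74 (-0.63), RT1-Da (-0.66), RT1-Db1 (-0.64), RT1-Ba (-0.50), RT1-Bb (-0.64) and Cd83 (-0.48). All 4 classical chains were thus lower in t-DHEA rats 2 and 3 than in the t-PBS livers, with SEs of 0.22, 0.17, 0.17 and 0.19 in the order just given. Leaving out t-PBS rat 1 gave 3 called genes, with RT1-Da (-0.57, SE 0.24) beside Cd74 and Cd83, against 2.65% of all genes. RT1-Da was also called by DESeq2 on all 6 livers (-0.43, SE 0.22). Leaving out t-DHEA rat 2, the lowest liver, moved RT1-Db1 to 0.02 and RT1-Ba to 0.25. Nothing in the labels sets t-DHEA rat 1 apart. Its library was the shallowest of the 6, at 12348511 counts, and the part of depth in its values was not tested.

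**Figure D3:**
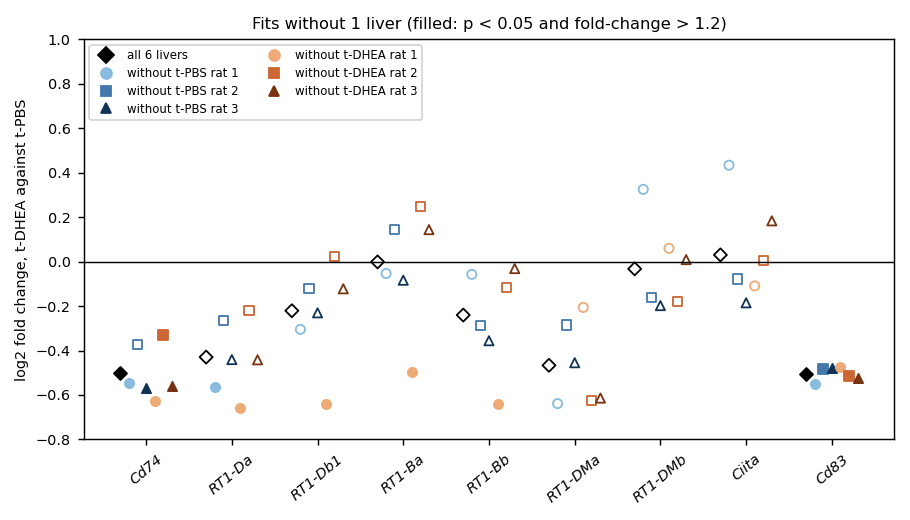
Log2 fold change of each gene with all 6 livers (black diamonds) and with 1 liver left out (colours and shapes), filled where p was below 0.05 and the fold-change above 1.2. The 4 classical chains are filled together only without t-DHEA rat 1, Cd83 is filled in every fit, and Cd74 in every fit but that without t-PBS rat 2.

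The genes for peptide loading and control were much lower in level and did not separate the groups. RT1-DMa and RT1-DMb encode the alpha and beta chains of DM. RT1-DMa had 23, 36 and 29 counts in t-PBS and 11, 25 and 24 in t-DHEA livers, a log2 fold change of -0.47 with a wide interval of -1.25 to 0.32. RT1-DMb had 84, 45 and 41 counts against 42, 64 and 49, and its log2 fold change was -0.03 (95% interval -0.67 to 0.61). RT1-DMa had fewer counts than RT1-DMb in every liver. By FPKM, however, it was the higher one in t-PBS rat 2 (1.171 against 0.9782) and t-PBS rat 3 (0.9282 against 0.8773). RT1-DMa moved to -0.21 when t-DHEA rat 1 was left out, to -0.29 when t-PBS rat 2 was, and to -0.64 when t-PBS rat 1 was, and no fit with 1 liver left out called it.

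Ciita, the coactivator of class II transcription, had the lowest level per length of the 9, 0.6576 FPKM, below which only 9.07% of the tested genes lay. Its counts were 76, 41 and 32 in t-PBS and 53, 51 and 37 in t-DHEA livers. All t-DHEA livers were inside the t-PBS range. Its log2 fold change was 0.03 (SE 0.32, 95% interval -0.69 to 0.75), so a change of the size seen for Cd74 in either direction was within the interval. Cd83, with 41 to 70 counts a liver, had an SE of 0.17, and the livers of Ciita were spread more widely.

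Across livers Cd74 and 3 of the chains varied together, and RT1-Bb followed Cd74 and RT1-Da less closely. Over the 6 livers, Pearson's r of log2 CPM was 0.936 between Cd74 and RT1-Da, 0.908 between RT1-Da and RT1-Db1, and 0.945 between RT1-Db1 and RT1-Ba. After each group's mean was taken away these were 0.926, 0.918 and 0.977. The other pairs of Cd74 and these chains had lower r over the 6 livers. Cd74 had 0.788 to RT1-Db1 and 0.623 to RT1-Ba, and RT1-Da had 0.763 to RT1-Ba. Without the group means these pairs had 0.83, 0.813 and 0.861. Over the 6 livers RT1-Bb had r = 0.467 to Cd74 and 0.443 to RT1-Da, and 0.686 and 0.73 to RT1-Db1 and RT1-Ba. Ciita had r = -0.142 to Cd74 and -0.282 to RT1-Da, and its highest values were 0.77 to RT1-DMb and 0.664 to RT1-Bb, or 0.773 and 0.769 without the group means. The correlation of Cd74 with Cd83, 0.717 over all livers, was -0.104 once the group means were removed, so it rested on the difference between groups. These are descriptions over 6 libraries that share a scaling of depth.

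The summed CPM of the 4 classical chains was 130.7, 161.6 and 131.9 in t-PBS and 173.9, 82.15 and 103.2 in t-DHEA livers. Cd74 did not follow this sum in t-DHEA rat 1: there were 0.6784 Cd74 counts for each count on the chains in that liver, against 0.9263 to 1.059 in the other 5. The log2 ratio of Cd74 to RT1-Ba (FPKM) was 2.516, 2.473 and 2.542 in t-PBS and 1.565, 2.267 and 2.464 in t-DHEA livers. It was the one ratio of the 7 computed in which the groups did not overlap. The distance was very small, 2.473 in t-PBS rat 2 against 2.464 in t-DHEA rat 3. Cd74 to RT1-Da was 2.194 to 2.535 in t-PBS and 2.100 to 2.371 in t-DHEA. The ratios are descriptions and were not tested. The smallest p that an exact permutation test of 3 livers against 3 allows is 0.1.

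Among the classical chains, the ratios to RT1-Da split the rats of both groups. The log2 ratio of RT1-Bb to RT1-Da was -1.541 in t-PBS rat 1, -1.772 in t-DHEA rat 1 and -1.717 in t-DHEA rat 2. In the other 3 livers it was -2.546, -2.409 and -2.535. The log2 ratios of RT1-DMa to RT1-DMb in the same 3 rats were -1.288, -1.352 and -0.7753, against 0.259, 0.0813 and -0.4489 in the others. These 3 rats were thus all below the others in that ratio. Within the B molecule, RT1-Ba to RT1-Bb was 1.560, 2.332 and 2.061 in t-PBS and 2.307, 1.820 and 2.409 in t-DHEA livers, and within the D molecule RT1-Db1 to RT1-Da was -2.139, -2.371 and -2.270 against -1.839, -2.186 and -2.307. RT1-Ba to RT1-Bb did not divide the rats in that way. RT1-Db1 to RT1-Da did put the same 3 rats above the others, though by a smaller distance. So did RT1-Ba to RT1-Da, at 0.019, 0.535 and 0.104 in those rats against -0.213, -0.348 and -0.126. The ratios of the other chains to RT1-Da thus gave the same division, which was not particular to RT1-Bb, nor to ratios with RT1-Da. Cd74 to RT1-Da did not give it, at 2.535, 2.100 and 2.371 in those rats against 2.259, 2.194 and 2.338. RT1 genes are highly polymorphic and have near-identical copies, in an outbred stock that need not share alleles with the reference, so the split of reads between copies is uncertain. RT1-A3, a class I gene chosen after its values were seen, had 198 and 124 counts in t-PBS rat 1 and t-DHEA rat 2 but 6 to 9 counts in the other 4 livers. The part of alleles in the values of RT1-A3 and of the classical chains was not tested.

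**Figure D4:**
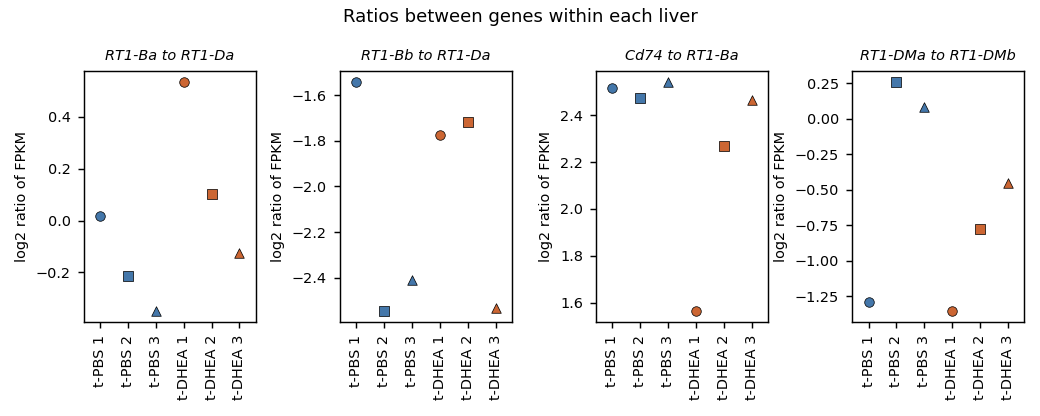
Log2 ratio of FPKM between pairs of genes in each of the 6 livers, t-PBS in blue and t-DHEA in orange, with axes that do not start at 0. RT1-Bb to RT1-Da lies between -1.772 and -1.541 or between -2.546 and -2.409, with rats of both groups in each range, and Cd74 to RT1-Ba is lowest in t-DHEA rat 1 at 1.565.

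The nonclassical class II genes and the factors that act on class II promoters showed no called change. In that list 8 of 13 genes were tested and 5 were below 0, the median log2 fold change was -0.08 and none was called in either direction. RT1-DOb, the beta chain of DO, which restrains DM, had 30 counts over the t-PBS livers and 47 over the t-DHEA livers (log2 fold change 0.74, SE 0.42), and RT1-DOa, its alpha chain, had 43 and 34. RT1-Db2 and RT1-Ha, with 0 and 4 counts in t-PBS against 4 and 2 in t-DHEA, were below the filter. Creb1 (-0.29, SE 0.30), Nfya (-0.13, SE 0.13) and Rfx5 (-0.11, SE 0.20) were not called, and Rfxap was listed at 0 in every liver.

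The proteases and other enzymes of the endosome had no called gene among 8 tested, of which 3 were below 0, with a median of 0.04. Ctss, which cleaves the invariant chain, was at 21.33 ± 1.0 CPM in t-PBS and 23.98 ± 0.9209 CPM in t-DHEA (SD, n = 3 livers each; log2 fold change 0.17, SE 0.097). Each t-DHEA liver lay above each t-PBS liver for this gene, as was so for 4.67% of all genes, and for Cd40 and Icosl described below. Lgmn, which starts the processing of many antigens, and Sppl2a, which clears the last fragment of Cd74 from membranes, had log2 fold changes of 0.17 and 0.16 (SE 0.12 for both).

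Costimulatory genes were not called either, 4 being tested of 6, with 2 below 0 and a median of -0.0032. Cd40, the receptor through which T cells license these cells, was at 0.52 (SE 0.30), Cd274 at -0.27 (SE 0.17) and Icosl at 0.11 (SE 0.092) on the log2 scale. Cd80, below the filter, had 9 counts over the t-PBS livers and 0 over the t-DHEA livers. Of the genes between interferon gamma and Ciita, 8 of 9 were tested, 4 were below 0, none was called and the median was -0.02. Ifngr1 was at -0.19 (SE 0.14), Irf8 at -0.18 (SE 0.14) and Irf1 at -0.19 (SE 0.26), and Ifng itself had 0 counts in t-PBS and 3 in t-DHEA. The class I pathway had 1 called gene among 19 tested, RT1-N3, with a log2 fold change of -0.9966 (SE 0.37) and groups that met at 87 counts in t-PBS rat 3 and t-DHEA rat 3. Of those 19 genes 6 were below 0 and the median was 0.03, with Tap2, the peptide transporter, at 0.20 (SE 0.12) and Tapbp at -0.18 (SE 0.12).

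Markers of the cells that carry class II were measured in the same libraries. The summed CPM of 7 general leukocyte genes was 75.07 to 78.06 in t-PBS and 65.41 to 74.83 in t-DHEA livers. The groups did not overlap, although 75.07 and 74.83 were very close. Of the 6 that were tested 4 were below 0 and only Cd53 was called (log2 fold change -0.42, SE 0.15). Cd52, below the filter, went the other way without overlap, with 6 counts over the t-PBS livers and 20 over the t-DHEA livers. Cd74 per unit of that sum was 1.775, 2.159 and 1.654 in t-PBS and 1.577, 1.163 and 1.537 in t-DHEA livers, so the groups stayed apart by this measure. The chains per unit of it were 1.741, 2.099 and 1.69 against 2.324, 1.256 and 1.452, and overlapped.

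The sum of 10 genes of monocytes and macrophages was also lower without overlap, 163.6 to 193.4 CPM against 138.7 to 152.6 CPM. Lyz2 (-0.44, SE 0.14) and Cd14 (-0.70, SE 0.26) were called lower in it, and S100a9, a neutrophil and monocyte gene, was called higher (0.94, SE 0.40). Relative to the monocyte and macrophage sum, the groups overlapped in Cd74. Cd74 was at 133.3 CPM beside a sum of 180.1 CPM in t-PBS rat 1, and at 118.0 beside 150.2 CPM in t-DHEA rat 1. The sum of 11 dendritic cell genes overlapped, 13.05 to 17.02 CPM against 10.47 to 15.18 CPM. Of its 7 tested genes 6 were below 0 and none was called, with Xcr1, of the cross-presenting subset, at -0.89 (SE 0.50). Like the chains, this sum was lowest in t-DHEA rat 2. The same held for the leukocyte, monocyte and macrophage, T and NK cell, stellate cell and mesothelium sums, so it was not particular to dendritic cells. The Kupffer cell, B cell, hepatocyte and sinusoidal endothelial sums were lowest in a t-PBS liver.

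Of the Kupffer cell genes none of 9 tested was called and none was below 0, with a median of 0.19. Their sums overlapped, at 577.7 to 735.9 CPM against 651.5 to 904.6 CPM, and only t-DHEA rat 3 was above the t-PBS range. Among them Vsig4 was at 0.21 (SE 0.13), Marco at 0.53 (SE 0.38) and Clec4f at 0.22 (SE 0.17) on the log2 scale. The B cell sum was higher without overlap, 13.8 to 14.73 CPM against 16.75 to 17.37 CPM, through Cd22 (0.46, SE 0.12), while Cd79a and Blk, the other tested genes of that list, were at -0.23 and -0.32. Of the defining B cell genes Pax5 had 7 counts over the t-PBS livers and 1 over the t-DHEA livers, and Ms4a1 4 and 9. The T and NK cell sum overlapped, at 32.05 to 32.13 CPM against 29.3 to 32.26 CPM, with no call among 5 tested genes. Most of that sum was Cd4, with means of 24.76 CPM in t-PBS and 22.6 CPM in t-DHEA, while Cd3e had 0.7657 and 0.809 CPM.

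**Figure D5:**
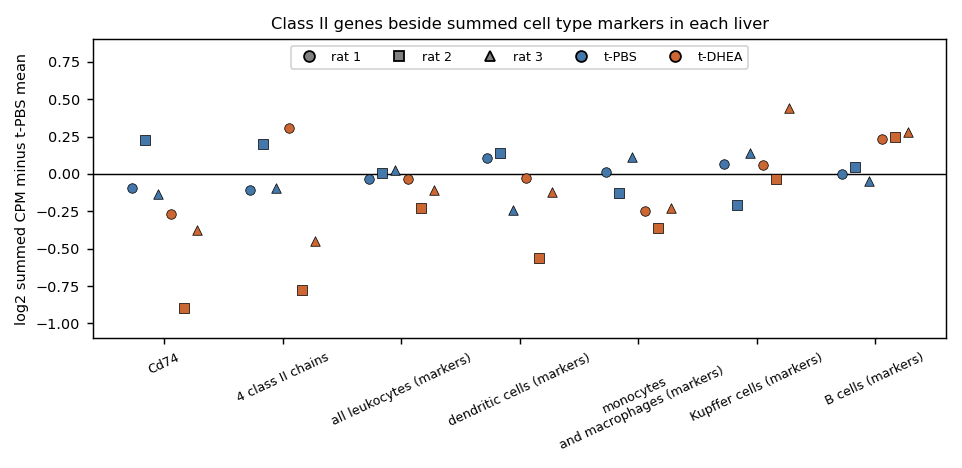
Summed CPM of Cd74, the 4 classical chains and cell type marker lists in each liver, as the log2 difference from the mean of the t-PBS livers. Summed leukocyte and monocyte and macrophage markers lie lower in every t-DHEA liver, while Kupffer and dendritic cell sums overlap between groups. The B cell sum lies higher through Cd22, with Cd79a and Blk of that list lower.

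Markers of cells outside the immune system were measured as well. In the list for the mesothelium that covers the liver, all 6 tested genes were called lower, against 2.98% of all genes. Their median was -2.01, and the sums were 28.29 to 35.14 CPM against 3.14 to 15.28 CPM. Krt7 and Krt19 of that list are not particular to mesothelium. In the stellate cell list Col1a1 (-0.88, SE 0.28) and Col3a1 (-0.40, SE 0.14) were called lower among 8 tested. The stellate sum did not overlap, 503.0 to 656.6 CPM against 414.4 to 481.7 CPM, and most of it was Col3a1, with means of 435.7 and 330.0 CPM. Lrat, Rgs5 and Dcn of the same list were at 0.04, 0.03 and -0.01 on the log2 scale. Hepatocyte and sinusoidal endothelial sums overlapped, with Tat (0.68) and Kdr (0.36) called higher and no gene lower. The part of these cell types in the values of Cd74, Cd83 and the chains was not tested.

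The genes whose profile over the 6 livers was most like the class II level, taken as the mean log2 CPM of Cd74 and the 4 chains, were found among 10846 other genes of at least 1 CPM. They included Plxnb1 (r = 0.9995), Itgb7 (r = 0.995), Akt1 (r = 0.9914) and Cep97 (r = 0.9886), each over 6 livers. Such values are the top of a long list over few points. Their own log2 fold changes were -0.31, -0.35, -0.11 and -0.35, and none was called.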

How the data were processed

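RNA from 6 livers, 3 a group, was sequenced as paired ends. According to the study's methods, the authors filtered the reads with Seqtk, mapped them to Rnor_6.0 with Hisat2 2.0.4 and counted fragments with Stringtie 1.3.0. The annotation release and strandedness are not given in the sources used here. The deposited counts are raw. The FPKM values the authors deposited equalled counts over length and total within a relative difference of 3.56e-05.

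Counts were tested with edgeR 4.0.16 in R 4.3.3 (filterByExpr, TMM, quasi-likelihood test, no block), on 12210 of 30957 genes, 13770 having no count. The study ran edgeR on FPKM, to which a count model was not fitted here. On simulated counts for 12210 genes, 95% of 200 genes changed 2-fold were recovered at p below 0.05, as were 4.99% of unchanged genes. No 2 libraries were duplicates (chi-square per degree of freedom within groups 17.85 to 26.09). Floors cover counting error only. The members, lists and tests were chosen with earlier results of these data known. Of 140 list entries 134 matched by name, 2 through an older symbol in RefSeq and 4 did not match. Named were all members, called list genes, up to 3 genes of lowest p in each list, and the 5 genes most like the class II level (1 of which is not reported here), with Irf1, Cd79a, Blk and other genes outside this rule chosen after their values were seen. Alternatives were DESeq2 1.42.0 and its size factors, no filter, limma 3.58.1 on log2(FPKM + 0.1) and log2(FPKM + 1), no fold threshold, rat number as a block and each liver left out.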

Additional observations from a re-analysis of the deposited data

How the results depend on the processing

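Members called lower numbered 1 to 6 and their median log2 fold change was -0.50 to -0.12 when each liver was left out, with 294 to 416 genes lower and 214 to 303 higher over all genes. DESeq2 called 240 genes lower and 174 higher, and limma on log2(FPKM + 1) 390 and 147, against 364 and 240. The split was 448 to 165 with limma on log2(FPKM + 0.1). With 1 liver left out, RT1-Ba ran from -0.50 to 0.25, RT1-Db1 from -0.64 to 0.025, RT1-DMb from -0.20 to 0.33 and Ciita from -0.19 to 0.43, thus changing sign. RT1-Ba also changed sign, at 0.00029 with DESeq2's size factors, 0.0017 with DESeq2 and 0.0074 without a filter, all close to 0. The other members kept their sign in every fit. Rat numbers did not pair the livers: deviations of same-numbered livers had r of -0.057, -0.059 and -0.055. With the replicate block 2 members were called lower, Cd74 and Cd83, their median was -0.29, RT1-DMb was at 0.0082, and 327 genes were lower and 212 higher. The causes were not tested. With 3 livers a group, and 11 to 84 counts a liver on RT1-DMa, RT1-DMb and Ciita, half-widths of 95% intervals ran from 0.38 to 0.79 on the log2 scale.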
